A study of Caenorhabditis elegans with 16 samples.

Results

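Chromatin accessibility was followed at 8 genes of Caenorhabditis elegans that encode GATA factors of the gut and the epidermis, elt-1, elt-2, elt-3, elt-6, elt-7, egl-18, end-1 and end-3. All ATAC-seq peaks that overlapped the body of one of these genes, or the 2 kb upstream of its start, in the Ensembl annotation of WBcel235 were taken. The rule gave 26 of the 29131 peaks, and every one of the 8 genes held at least 1. The set was chosen by gene name and not by its values, although earlier results of these data were known when it was proposed.

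ATAC-seq uses the Tn5 transposase to insert sequencing adapters where DNA is open, so that reads collect in accessible regions. It was performed on whole L1 larvae of 4 genotypes with 4 replicates each. RPOA-2 depleted larvae (rpoa-2::degron; eft-3p::tir-1) and GRWD-1 depleted larvae (named rrb-1::degron; eft-3p::tir-1 in the labels) were collected after 24 h at 23 °C, as they grow more slowly, and undepleted larvae with the same degrons and no tir-1 after 18 h at 23 °C. All 4 genotypes, the undepleted ones included, carried the degron and were kept on 1 mM auxin. RPOA-2 belongs to the catalytic core of RNA polymerase I, which makes ribosomal RNA, and GRWD-1 is a factor of large ribosomal subunit assembly, and the comparisons ask what their loss does to open chromatin. TIR1 lets auxin degrade the tagged protein and was expressed from the eft-3 promoter, which is active in most tissues. Effects of the depletion cannot be told apart from those of the tir-1 transgene, the strain background or the longer culture. The degron acts on the protein, so no peak at these 8 genes checks the labels. Each genotype's larvae were split into 4 replicates after growth, so the p-values cover the spread of handling and sequencing and not that between growths. Reads come from whole animals, so fewer cells of a tissue and less open chromatin per cell cannot be told apart.

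GATA factors are zinc finger proteins that bind sites with the core letters GATA. In the worm embryo they act in a relay. END-1 and END-3 specify the endoderm for a short time, and ELT-2 and ELT-7 then take over and keep the genes of the intestine active for the rest of life. In the skin, ELT-1 sets epidermal fate, ELT-3 acts in the differentiation of the main epidermal syncytium, and EGL-18 and ELT-6 act in the seam cells, the stem-like cells of the lateral epidermis. egl-18 and elt-6 lie next to each other in the same orientation on chromosome IV.

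The number of reads counted in peaks ranged from 2337415 to 13010378 per library, and the biological coefficient of variation over all peaks was 8.14%. Between the 24 pairs of libraries of the same genotype, the chi-square of their counts was 1.87 to 11.8 per degree of freedom, so no library was a copy of another within counting error. Levels are given in CPM, the usual depth-scaled unit (here with TMM factors), and densities in CPM per kb of peak. The edgeR model had a term for genotype and 2 factors of unwanted variation, estimated from control peaks with a high adjusted p for RPOA-2 depletion in a first DESeq2 fit. With all libraries, 491 of the 29131 peaks were called for RPOA-2 depletion and 402 for GRWD-1 depletion, and both numbers depended on single libraries. Without RPOA-2 depleted replicate 2 they were 34 and 87. RPOA-2 calls numbered 179, 142 and 231 without RPOA-2 undepleted replicate 1, 3 or 4. They numbered 301 without GRWD-1 depleted replicate 3 and 315 without GRWD-1 undepleted replicate 1. They rose to 741 without RPOA-2 depleted replicate 1 and to 709 without GRWD-1 depleted replicate 2. GRWD-1 calls numbered 194 and 226 without GRWD-1 depleted replicate 2 or 3, and 243 and 160 without GRWD-1 undepleted replicate 1 or 2.

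The members differed first in the number of peaks they held. The adjacent egl-18 and elt-6 genes held 12 distinct peaks, of which 11 belonged to egl-18 and 4 to elt-6, with 3 shared between them. elt-3 held 6 peaks, elt-1 held 3, end-3 held 2, and elt-2, elt-7 and end-1 held 1 each. These counts were not scaled by gene length, and egl-18 (1902322 to 1917840) is far longer than end-3 (14014695 to 14015980). The single peaks of elt-2 and end-1 were each called in 1 library only. Peaks were numbered along the chromosome within each gene or locus. The 26 peaks had a median length of 627.5 bp and a median density of 55.8 CPM per kb, beside 381 bp and 52.4 CPM per kb over all peaks. Of the 26, 7 spanned the annotated 5′ end of a transcript of their own gene, and 13 (50%) spanned that of any gene, beside 23.7% of all peaks. The 13 include peaks over 5′ ends of other genes at these loci. As the 26 were taken for lying at genes and were longer, the 2 shares are not a like comparison. A peak over a transcript 5′ end was present at elt-1, elt-3, elt-6, elt-7, end-1 and end-3. At egl-18 and elt-2 the annotated 5′ ends lay outside every peak of the gene.

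**Figure D1:**
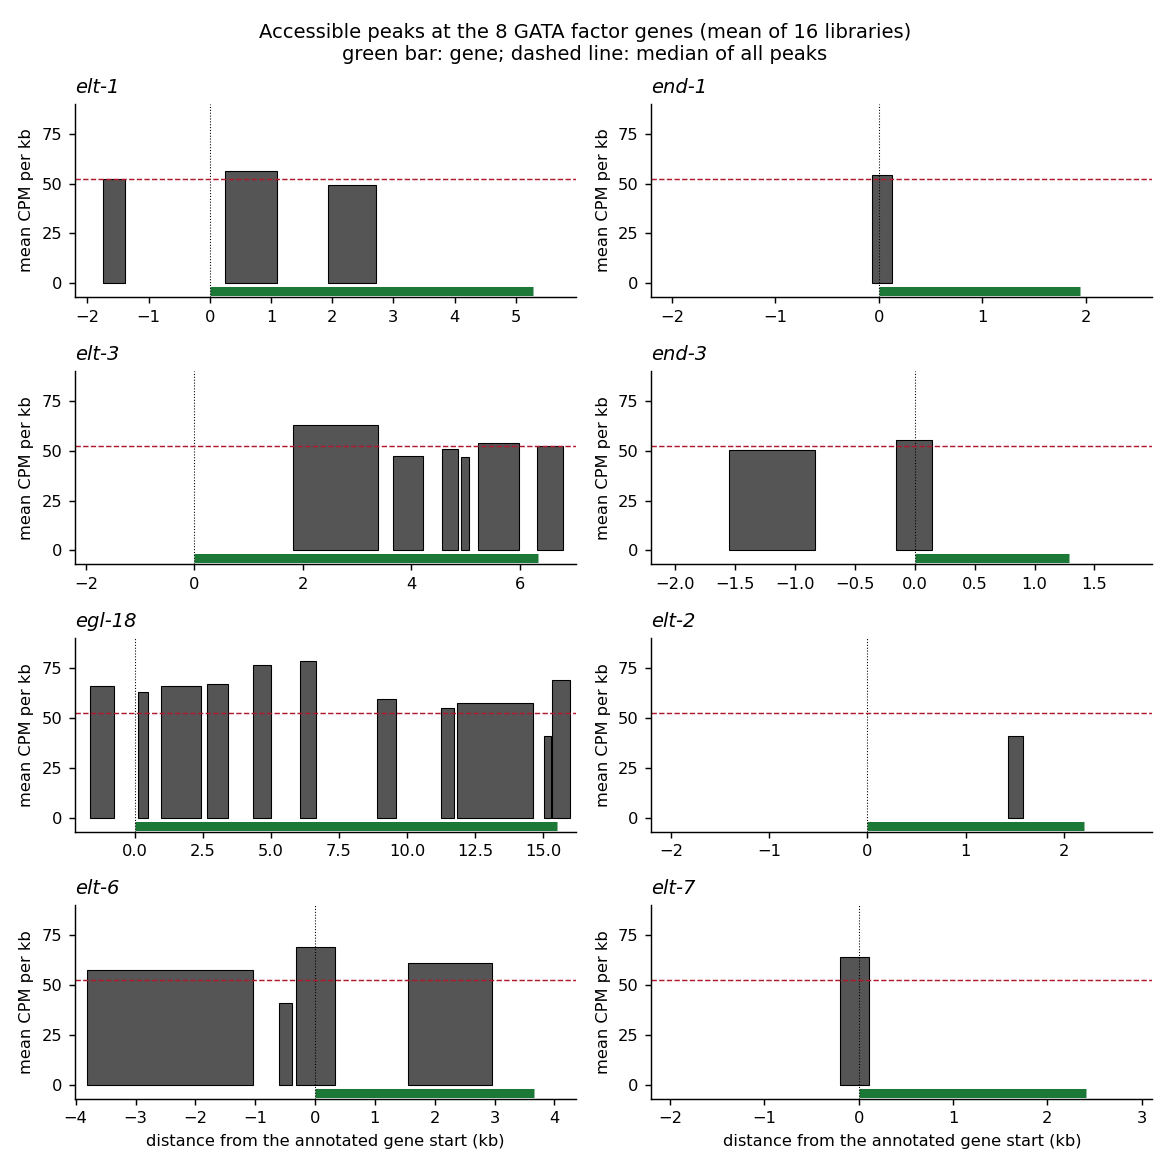
Peaks at each gene, drawn by distance from the annotated gene start (kb, horizontal axis) and mean density over the 16 libraries (CPM per kb, vertical axis), with the gene as a green bar. The dashed line is the median of all peaks, 52.4 CPM per kb, and the elt-2 peak at 41.0 CPM per kb is the lowest drawn.

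Summed over all peaks of a gene, the order of mean density over the 16 libraries was elt-7 with 64.3 ± 9.18 CPM per kb (SD, n = 16), egl-18 with 63.5 ± 3.29, elt-6 with 59.2 ± 2.85, elt-3 with 56.0 ± 3.72, end-1 with 54.1 ± 10.1, elt-1 with 52.8 ± 3.12, end-3 with 51.9 ± 7.73 and elt-2 with 41.0 ± 8.03. Neighbours in this order were mostly close. elt-7 was above egl-18 in 9 of the 16 libraries, end-1 above elt-1 in 7 and elt-1 above end-3 in 9. egl-18 was above elt-6 in 15 libraries, and end-3 above elt-2 in 14. The 3 shared peaks enter the sums of both egl-18 and elt-6. Of these, egl-18/elt-6 peak 9, over coding exons of egl-18, averaged 159 of the 300 CPM summed for elt-6, so the 2 genes are not separate values. At end-3, peak 1, which also overlaps aip-1, averaged 36.2 of the 52.6 CPM summed. The density of elt-2 was at percentile 3.32 of the 24034 genes with a peak, and that of elt-7 at percentile 73.9. The groups overlapped at each of the 8 genes in both depletions.

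**Figure D2:**
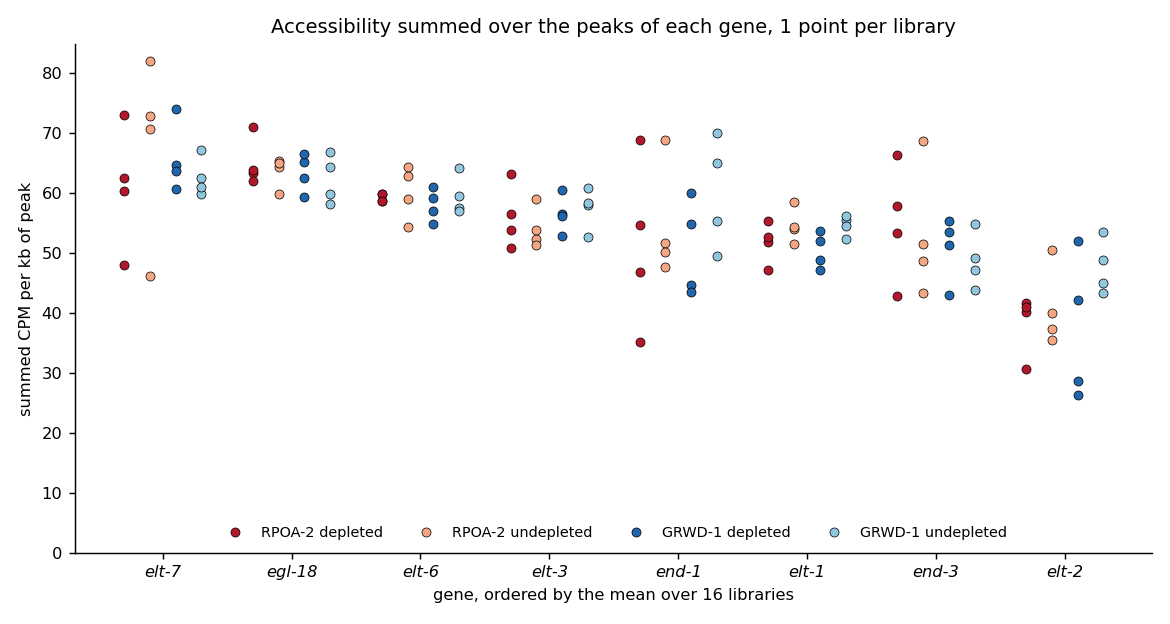
Summed density of the peaks of each gene (CPM per kb, vertical axis), 1 point per library, with the genotypes side by side and the genes ordered by their mean. Depleted and undepleted libraries overlap at every gene, and elt-2 lies lowest with a mean of 41.0 CPM per kb.

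In neither depletion did accessibility at the 8 genes change past the threshold. With edgeR's quasi-likelihood test and a Benjamini-Hochberg adjusted p-value under 0.05 over all 29131 peaks, 0 of the 26 peaks were called upon RPOA-2 depletion, beside 1.69% of all peaks. Upon GRWD-1 depletion 0 of the 26 were called too, beside 1.38% of all peaks. At an adjusted p under 0.1 there was 1 for GRWD-1, elt-1 peak 2, beside 2.16% of all peaks. At an unadjusted p under 0.05 there was 1 peak for RPOA-2 (12.3% of all peaks) and 2 for GRWD-1 (10.8%). DESeq2 also called 0 peaks in each, with 1 peak each at an unadjusted p under 0.05, although it gave no adjusted p for 8 of the 26 peaks for RPOA-2 and 4 for GRWD-1. The estimated log2 change was above 0 at 9 of the 26 peaks for RPOA-2 (50.8% of all peaks) and at 12 for GRWD-1 (51.5%). For RPOA-2 its median over the 26 was -0.055, beside 0.0036 over all peaks. For GRWD-1 its median was -0.0015, beside 0.0058. Estimates ranged from -0.25 to 0.41 for RPOA-2 and from -0.30 to 0.20 for GRWD-1. The 95% interval stayed within 0.5 on either side of 0 at 21 of the 26 peaks for RPOA-2 and at 23 for GRWD-1, so that a larger log2 change was outside the interval at those peaks. The depleted and undepleted libraries of RPOA-2 overlapped at all 26 peaks. Over all peaks, 2.13% had every depleted library above and 2.49% every depleted library below. At such low shares, 0 of 26 does not set the members apart from all peaks.

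**Figure D3:**
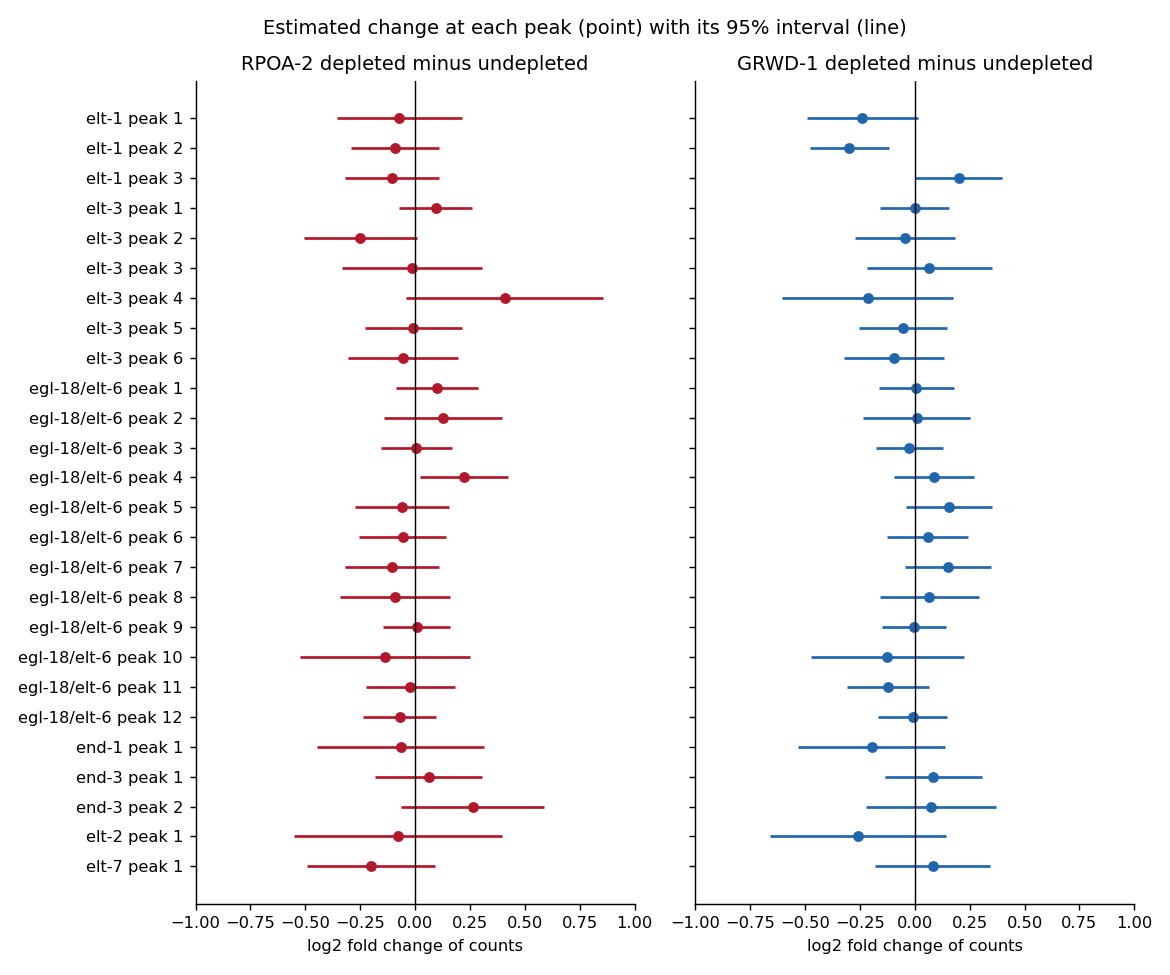
Log2 fold change of counts (horizontal axis), depleted minus undepleted, at each of the 26 peaks, with RPOA-2 on the left and GRWD-1 on the right. Points are edgeR estimates and lines their 95% intervals, and no peak passed an adjusted p of 0.05, with the lowest at elt-1 peak 2 for GRWD-1 (0.081).

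Levels also moved little from library to library at most peaks. The highest library was 1.27 to 3.23 times the lowest (median 1.55), and the highest group mean was 1.03 to 1.40 times the lowest (median 1.12). The widest range was at elt-3 peak 4, from 3.04 to 9.83 CPM (8 to 94 reads per library). The narrowest was at egl-18/elt-6 peak 9, from 137 to 173 CPM (359 to 2214 reads per library).

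**Figure D4:**
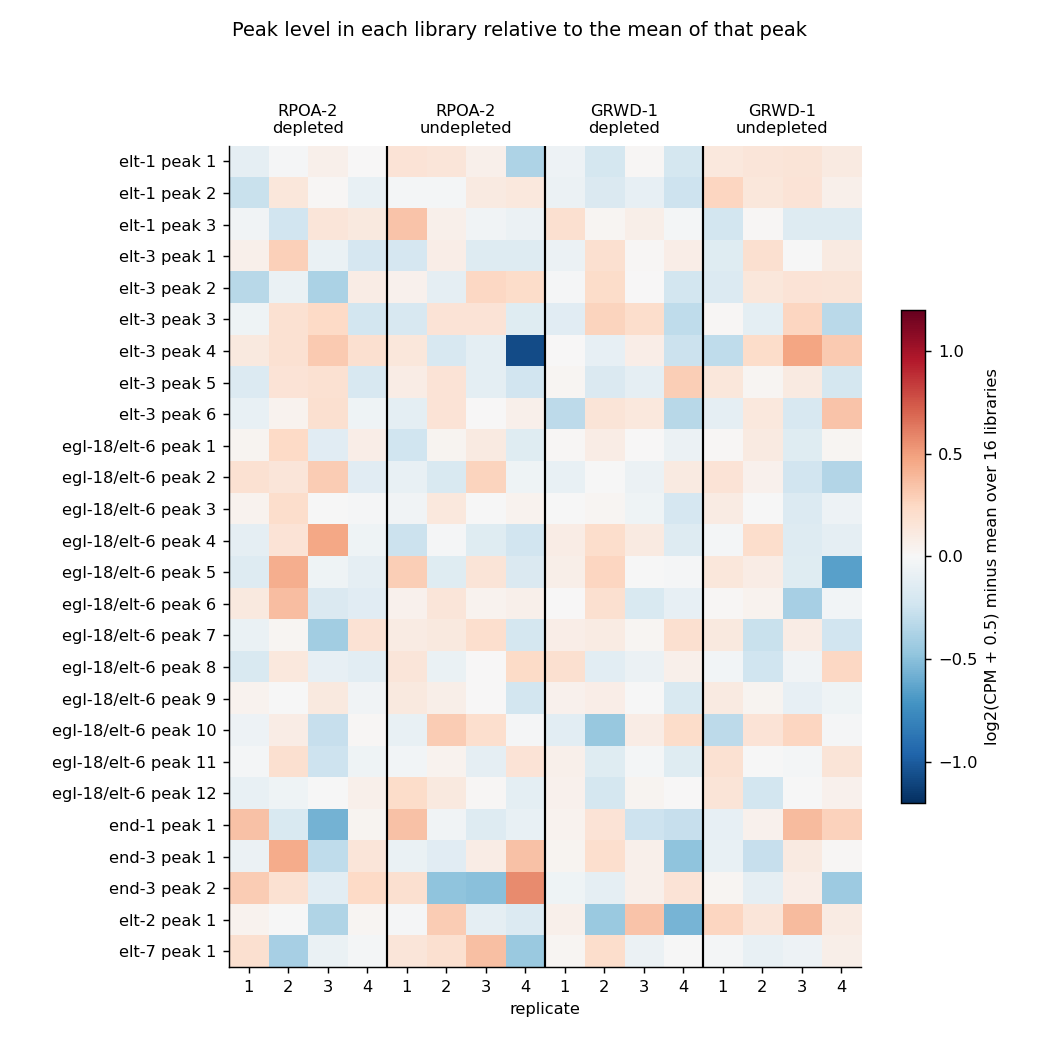
Level of each peak (rows) in each of the 16 libraries (columns, grouped by genotype) as log2(CPM + 0.5) minus the mean of that peak, red above and blue below. Both colours occur within every genotype, and the darkest cell is elt-3 peak 4 in RPOA-2 undepleted replicate 4, with 3.04 CPM.

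elt-1, which sets epidermal fate, came nearest to the threshold, upon GRWD-1 depletion and at a peak over some of its transcript starts. elt-1 peak 2 (chromosome IV, 9615236 to 9616084, 849 bp) covers 5′ untranslated and coding sequence and the annotated 5′ ends of 2 of the 6 transcripts. It held 45.1, 42.1, 44.2 and 39.9 CPM in GRWD-1 depleted larvae, against 56.9, 52.1, 53.2 and 49.7 CPM in GRWD-1 undepleted larvae. All 4 depleted libraries lay below all 4 undepleted ones, which was also so at 2.12% of all peaks, and 1.76% of all peaks had every GRWD-1 depleted library above. The mean was 42.9 ± 2.34 CPM in GRWD-1 depleted and 53.0 ± 3.00 CPM in GRWD-1 undepleted larvae (SD, n = 4 each). This gave a log2 change of -0.30 (standard error, SE, 0.091, 95% interval -0.48 to -0.12), with an unadjusted p of 0.00151 and an adjusted p of 0.081 in edgeR, so it did not pass the threshold. Over the 13 other fits of all peaks the estimate lay between -0.31 and -0.22 and the adjusted p between 0.071 and 0.68, and over the 16 fits without 1 library the adjusted p lay between 0.073 and 0.49.

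In RPOA-2 larvae the same elt-1 peak held 39.4, 52.1, 48.0 and 44.5 CPM when depleted, against 46.7, 46.7, 51.3 and 51.7 CPM when undepleted. These libraries overlapped, and the log2 fold change was -0.09 (SE 0.10, edgeR adjusted p = 0.789). The difference between both depletion effects, RPOA-2 minus GRWD-1, was 0.21 (95% interval -0.062 to 0.48, edgeR adjusted p = 0.909), so the 2 effects were not shown to differ.

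elt-1 peak 1 (chromosome IV, 9613255 to 9613609) has its centre 1563 bp before the gene start and was the other peak with groups apart. It held 17.5, 15.8, 18.6 and 15.8 CPM in GRWD-1 depleted larvae, against 20.2, 20.4, 20.6 and 19.8 CPM in GRWD-1 undepleted larvae. Its log2 change was estimated at -0.24 (SE 0.13, edgeR adjusted p = 0.502). In RPOA-2 depleted larvae it held 17.0, 18.2, 19.2 and 18.4 CPM, against 20.6, 20.4, 19.2 and 14.1 CPM in RPOA-2 undepleted larvae, a log2 change of -0.07 (SE 0.14, edgeR adjusted p = 0.903). RPOA-2 undepleted replicate 4 was low here, and the groups overlapped.

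Upon GRWD-1 depletion the estimate at the third peak of elt-1 had the other sign from those at peaks 1 and 2, whereas upon RPOA-2 depletion all 3 were below 0. elt-1 peak 3 (chromosome IV, 9616931 to 9617712, coding sequence) held 43.9, 39.0, 40.3 and 37.7 CPM in GRWD-1 depleted larvae, against 32.9, 38.8, 34.4 and 34.4 CPM in GRWD-1 undepleted larvae. The groups overlapped at 1 library of each, and the log2 fold change was 0.20 (SE 0.099, unadjusted p = 0.047, edgeR adjusted p = 0.451). In RPOA-2 larvae it held 37.3, 32.7, 42.6 and 41.7 CPM when depleted, against 48.7, 40.2, 37.2 and 36.5 CPM when undepleted, a log2 change of -0.11 (SE 0.11, edgeR adjusted p = 0.770). The difference between the 2 effects was -0.31 (SE 0.15, unadjusted p = 0.040), and its adjusted p was 0.852 in edgeR. A small RNA locus, 21ur-15550, overlaps this peak, so its reads cannot be given to elt-1 alone. Summed over the 3 peaks, elt-1 averaged 100.0 ± 5.91 CPM in GRWD-1 depleted and 108.3 ± 3.20 CPM in GRWD-1 undepleted larvae (SD, n = 4 each).

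elt-3, which acts in epidermal differentiation, held its longest peak in an intron and shorter ones along its coding exons and at its 3′ end. elt-3 peak 1 (chromosome X, 13936692 to 13938253, 1562 bp) was the densest of its 6 peaks, with 62.9 CPM per kb, and also overlaps K02B9.7 and K02B9.8. It held 102.2, 119.3, 92.7 and 84.9 CPM in RPOA-2 depleted larvae, against 85.0, 103, 87.8 and 87.5 CPM in RPOA-2 undepleted larvae. GRWD-1 depleted larvae had 93.1, 112, 98.7 and 103 CPM, against 88.3, 112, 97.6 and 105 CPM in GRWD-1 undepleted larvae. Replicate 2 was the highest library in all 4 genotypes, and the groups overlapped.

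elt-3 peak 2 (chromosome X, 13938540 to 13939083) spans a transcript start and had the lowest estimate upon RPOA-2 depletion. It held 20.3, 24.3, 19.6 and 27.3 CPM in RPOA-2 depleted larvae, against 26.6, 23.7, 30.6 and 30.0 CPM in RPOA-2 undepleted larvae. The groups overlapped, and the log2 fold change was -0.25 (SE 0.13, 95% interval -0.51 to 0.0086, edgeR adjusted p = 0.434). In GRWD-1 depleted larvae this peak held 25.4, 29.9, 25.8 and 21.9 CPM, against 22.8, 28.3, 28.8 and 28.6 CPM in GRWD-1 undepleted larvae.

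elt-3 peak 4 (chromosome X, 13939794 to 13939945, 152 bp of coding sequence) had the highest estimate upon RPOA-2 depletion and the lowest count of any of the 26 peaks in a single library, 8 reads. It held 7.61, 7.97, 8.77 and 8.05 CPM in RPOA-2 depleted larvae, against 7.68, 6.04, 6.38 and 3.04 CPM in RPOA-2 undepleted larvae. The estimated log2 change was 0.41 (SE 0.23, 95% interval -0.041 to 0.86, edgeR adjusted p = 0.473), and RPOA-2 undepleted replicate 4 stood lowest. In GRWD-1 larvae it held 6.99, 6.46, 7.39 and 5.75 CPM when depleted, against 5.52, 8.18, 9.83 and 8.77 CPM when undepleted, a log2 change of -0.22 (SE 0.20, edgeR adjusted p = 0.751). The difference between the 2 effects was 0.62 (SE 0.30, unadjusted p = 0.040, edgeR adjusted p = 0.852). Peaks 3, 5 and 6 of elt-3 had estimates between -0.094 and 0.066 in both depletions.

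The egl-18 and elt-6 locus, which serves the seam cells, had 1 peak upstream of egl-18, 6 in its introns, 3 over its coding and 3′ exons, 1 over the junction of both genes and 1 in elt-6. The densest were egl-18/elt-6 peak 6 (chromosome IV, 1908382 to 1908990) with 78.6 CPM per kb and peak 5 (1906661 to 1907306) with 76.6 CPM per kb, at percentiles 93.0 and 92.4 of all peaks. Both lie in intron sequence of egl-18, and peak 6 also overlaps F55A8.4 and peak 5 F55A8.3, so their reads cannot be given to egl-18 alone. Peak 6 held 51.7, 61.4, 42.2 and 43.2 CPM in RPOA-2 depleted larvae, against 49.3, 52.4, 48.9 and 49.4 CPM in RPOA-2 undepleted larvae. In GRWD-1 larvae it held 47.5, 54.3, 41.7 and 44.2 CPM when depleted, against 47.9, 49.0, 35.9 and 46.5 CPM when undepleted. The groups overlapped in both.

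egl-18/elt-6 peak 4 (chromosome IV, 1904966 to 1905739), also intronic and overlapping F55A8.5, was the peak of the 26 with an unadjusted p under 0.05 upon RPOA-2 depletion. It held 47.6, 57.3, 71.0 and 49.3 CPM in RPOA-2 depleted larvae, against 42.7, 50.8, 46.3 and 43.7 CPM in RPOA-2 undepleted larvae. Replicate 3 of the depleted larvae was the highest and the groups overlapped. This gave a log2 change of 0.22 (SE 0.10, unadjusted p = 0.030, edgeR adjusted p = 0.332). The estimate was 0.081 without RPOA-2 depleted replicate 3 and 0.14 without RPOA-2 depleted replicate 2, and lay between 0.081 and 0.29 over all 16 fits without 1 library. Over the 13 other fits it lay between 0.086 and 0.29. Upon GRWD-1 depletion it stood at 54.6, 59.5, 55.2 and 46.0 CPM, against 50.5, 59.2, 46.1 and 47.4 CPM in GRWD-1 undepleted larvae.

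Near the 5′ ends of both genes no separation was seen. egl-18/elt-6 peak 2 (chromosome IV, 1902421 to 1902786), the peak nearest to an egl-18 transcript start, held 26.1, 25.3, 28.4 and 20.8 CPM in RPOA-2 depleted larvae, against 21.5, 20.1, 27.7 and 22.1 CPM in RPOA-2 undepleted larvae. With GRWD-1 depleted, the libraries held 21.5, 22.9, 21.7 and 24.8 CPM, against 25.7, 23.8, 19.5 and 17.9 CPM in GRWD-1 undepleted larvae. Peak 11 (1917652 to 1918310) spans the elt-6 start and the end of egl-18. It held 44.7, 51.9, 38.0 and 43.8 CPM in RPOA-2 depleted larvae, against 44.4, 46.8, 42.0 and 51.0 CPM in RPOA-2 undepleted larvae. GRWD-1 depleted larvae had 47.3, 40.9, 44.6 and 41.0 CPM, against 51.4, 45.1, 44.6 and 50.7 CPM in GRWD-1 undepleted larvae. The libraries of depleted and undepleted larvae overlapped at both peaks.

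Among the other peaks of the locus, the largest estimates were small. Upon GRWD-1 depletion peak 5 had a log2 fold change of 0.16 (SE 0.098, edgeR adjusted p = 0.602), with 51.3, 58.4, 48.7 and 48.5 CPM in depleted and 53.7, 52.1, 44.2 and 30.9 CPM in undepleted larvae. Peak 7 (1911204 to 1911898) had 0.15 (SE 0.099, edgeR adjusted p = 0.622), with 43.2, 43.9, 41.7 and 46.7 CPM in depleted and 44.3, 33.9, 43.5 and 34.8 CPM in undepleted larvae. Upon RPOA-2 depletion peak 10 (1917371 to 1917596), in the 3′ untranslated region of egl-18 with its centre 494 bp before elt-6, had -0.14 (SE 0.20, edgeR adjusted p = 0.855). It held 8.78, 9.80, 7.52 and 9.32 CPM in RPOA-2 depleted larvae, against 8.60, 11.5, 10.6 and 9.13 CPM in RPOA-2 undepleted larvae. Peak 9 (1914167 to 1916946), 2780 bp over coding exons of egl-18, held the most reads of the 26 peaks, with a mean of 162 ± 7.69 CPM in RPOA-2 depleted and 159 ± 15.9 CPM in RPOA-2 undepleted larvae (SD, n = 4 each).

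In the gut, end-1 and end-3 work in the embryo, and the annotated start of each lay in a peak in these larvae. end-1 peak 1 (chromosome V, 13985064 to 13985253) was merged from 1 individual peak, as were that of elt-2 and elt-3 peak 4. Peaks were called per library, so each of these was called in 1 library only, as were 28.6% of all peaks. end-1 peak 1 held 16 to 140 reads per library. It held 13.1, 8.88, 6.68 and 10.4 CPM in RPOA-2 depleted larvae, against 13.1, 9.82, 9.04 and 9.51 CPM in RPOA-2 undepleted larvae. Its log2 change was estimated at -0.064 (SE 0.19, edgeR adjusted p = 0.941). Upon GRWD-1 depletion it stood at 10.4, 11.4, 8.47 and 8.26 CPM, against 9.39, 10.5, 13.3 and 12.3 CPM in GRWD-1 undepleted larvae, a log2 change of -0.20 (SE 0.17, edgeR adjusted p = 0.732). Both pairs of groups overlapped.

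end-3 peak 2 (chromosome V, 14014540 to 14014834) lies over the end-3 start. It held 19.9, 18.3, 14.6 and 19.1 CPM in RPOA-2 depleted larvae, against 18.4, 11.3, 11.2 and 24.0 CPM in RPOA-2 undepleted larvae, a log2 change of 0.26 (SE 0.16, 95% interval -0.066 to 0.59, edgeR adjusted p = 0.557). The undepleted libraries were the more scattered, and held both the highest and the lowest values. With GRWD-1 depleted, the libraries held 15.5, 14.8, 16.8 and 18.0 CPM, against 16.3, 14.8, 16.9 and 11.7 CPM in GRWD-1 undepleted larvae, a log2 change of 0.076 (SE 0.15, edgeR adjusted p = 0.909). end-3 peak 1 (14013146 to 14013864), with its centre 1190 bp upstream, also overlaps aip-1 and is nearer to that gene's start, and its log2 fold change was 0.062 for RPOA-2 (adjusted p = 0.902) and 0.085 for GRWD-1 (adjusted p = 0.849) in edgeR. With 3 factors in place of 2 the GRWD-1 estimate was 0.55 (edgeR adjusted p = 0.105), and over the other 12 fits it was at most 0.26.

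elt-2, the main factor of intestinal differentiation, held a single peak of 150 bp in its coding sequence (chromosome X, 10482669 to 10482818), with 11 to 94 reads per library. The nearest peak upstream had its centre 3635 bp before the gene start, outside the 2 kb taken here. The coding peak held 6.24, 6.01, 4.59 and 6.14 CPM in RPOA-2 depleted larvae, against 5.99, 7.55, 5.59 and 5.33 CPM in RPOA-2 undepleted larvae, a log2 change of -0.078 (SE 0.24, edgeR adjusted p = 0.943). GRWD-1 depleted larvae had 6.32, 4.30, 7.80 and 3.95 CPM, against 7.32, 6.74, 8.01 and 6.50 CPM in GRWD-1 undepleted larvae. Replicates 2 and 4 of the GRWD-1 depleted larvae were low, the groups overlapped, and the log2 fold change was -0.26 (SE 0.20, 95% interval -0.66 to 0.14, edgeR adjusted p = 0.696). The estimate was -0.54 without GRWD-1 depleted replicate 3 and -0.092 without GRWD-1 depleted replicate 2, and with 3 factors it was -0.045.

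elt-7, which acts beside elt-2, held 1 peak over its start (chromosome V, 4770470 to 4770774). It held 22.2, 14.6, 18.4 and 19.1 CPM in RPOA-2 depleted larvae, against 21.5, 22.2, 25.0 and 14.1 CPM in RPOA-2 undepleted larvae. The estimated log2 change was -0.20 (SE 0.15, 95% interval -0.49 to 0.089, edgeR adjusted p = 0.630). Upon GRWD-1 depletion it stood at 19.7, 22.5, 18.5 and 19.4 CPM, against 19.1, 18.2, 18.6 and 20.5 CPM in GRWD-1 undepleted larvae, a log2 change of 0.082 (SE 0.13, edgeR adjusted p = 0.883). The libraries overlapped in both.

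**Figure D5:**
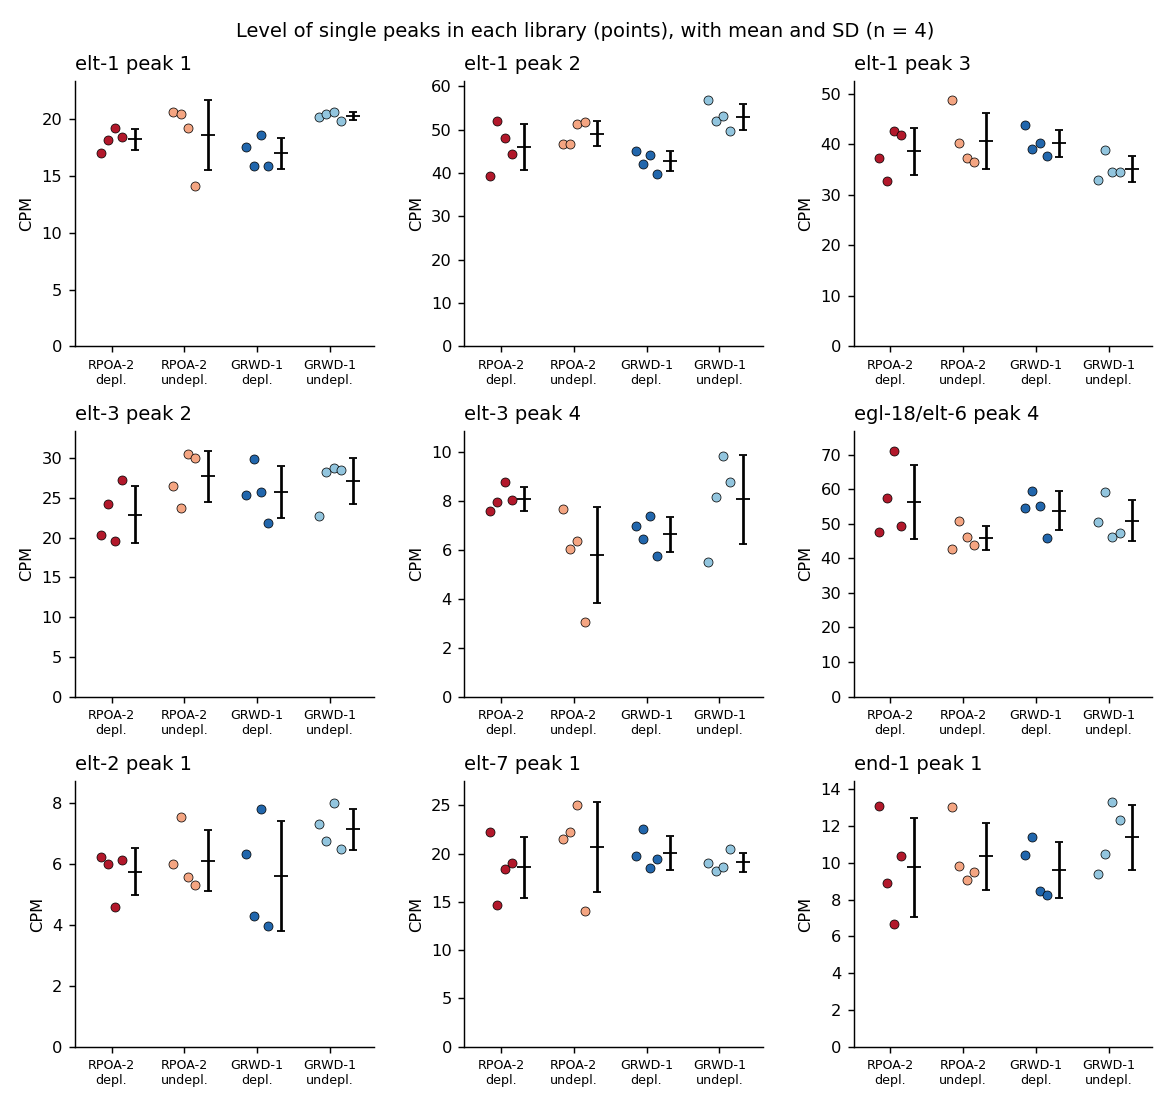
CPM (vertical axis, from 0) of 9 single peaks in each library (points, replicates 1 to 4 from left to right within a genotype), with the mean and SD (n = 4) beside them. At elt-1 peaks 1 and 2 the GRWD-1 depleted libraries lie below all GRWD-1 undepleted libraries, and at the other 7 peaks the groups overlap in both depletions.

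When the counts of each gene's peaks were summed and tested among the 24034 genes with a peak, 0 of the 8 genes were called upon RPOA-2 depletion, beside 4.57% of genes, and 0 upon GRWD-1 depletion, beside 3.41% of genes (edgeR). At an unadjusted p under 0.05 there were 0 of the 8 in each, beside 17.2% and 16.2% of genes, and no other tool was run on the sums. The log2 fold changes of the sums ranged from -0.20 at elt-7 to 0.12 at end-3 for RPOA-2. They ranged from -0.25 at elt-2 to 0.086 at end-3 for GRWD-1. The 95% interval was narrowest at egl-18, from -0.093 to 0.12 for RPOA-2 and from -0.080 to 0.12 for GRWD-1. It was widest at elt-2, from -0.54 to 0.39 for RPOA-2 and from -0.64 to 0.14 for GRWD-1. That of end-3, with 2 peaks, ran from -0.12 to 0.36 for RPOA-2 and from -0.13 to 0.31 for GRWD-1. Most of the end-3 sum came from its peak 1, which also overlaps aip-1. The sums of egl-18 and elt-6 share 3 peaks and are not separate tests.

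The remaining comparisons gave no call either. Between RPOA-2 depleted and GRWD-1 depleted larvae, 0 of the 26 peaks were called by edgeR, beside 0.13% of all peaks, and 0 had an unadjusted p under 0.05 (7.09% of all peaks). elt-3 peak 4 was the only one of the 26 with all RPOA-2 depleted libraries above all GRWD-1 depleted libraries (1.34% of all peaks), and its log2 fold change was 0.21 (SE 0.21, edgeR adjusted p = 0.912). For the difference between both depletion effects 0 of the 26 were called, beside 0.0103% of all peaks. Those with an unadjusted p under 0.05 were the 2 peaks given above, elt-1 peak 3 and elt-3 peak 4 (5.8% of all peaks). Between RPOA-2 undepleted and GRWD-1 undepleted larvae 0 were called, beside 0.00343% of all peaks. There, egl-18/elt-6 peak 6 had an unadjusted p of 0.019 (1 of 26, beside 4.06% of all peaks), with a log2 fold change of 0.25 (SE 0.10, edgeR adjusted p = 1.00). DESeq2 called 0 of the 26 in each of these 3 comparisons too, with 0, 1 and 1 at an unadjusted p under 0.05, and gave no adjusted p for 22 of the 26 in the first.

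Genes that act before or after these factors were read from lists that were also drawn up with earlier results known. Of 8 regulators upstream or beside them, 5 held 20 peaks. Upon RPOA-2 depletion 1 of the 20 rose (1.2% of all peaks), at sys-1, a beta-catenin partner of POP-1 in endoderm specification, and 0 fell, with a median log2 fold change of -0.093. It averaged 89.5 ± 21.1 CPM in RPOA-2 depleted and 62.1 ± 12.01 CPM in RPOA-2 undepleted larvae (SD, n = 4 each), a log2 change of 0.47 (edgeR adjusted p = 0.00154). Upon GRWD-1 depletion 1 of the 20 fell (0.81% of all peaks), at egl-27, and 0 rose, with a median of -0.024. egl-27 averaged 83.0 ± 3.84 CPM in GRWD-1 depleted and 99.6 ± 9.40 CPM in GRWD-1 undepleted larvae (SD, n = 4 each), a log2 change of -0.28 (edgeR adjusted p = 0.045). The sys-1 call was lost without RPOA-2 depleted replicate 2 (edgeR adjusted p = 0.570) or RPOA-2 undepleted replicate 1, with log2 changes of 0.31 to 0.56 over the 16 fits without 1 library. It was also lost with no factors, with control peaks from the GRWD-1 comparison and with all peaks as control peaks (edgeR adjusted p = 0.555). That of egl-27 was lost without any library other than RPOA-2 depleted replicates 1 and 4 and GRWD-1 depleted replicate 4, with an adjusted p of up to 0.493 in edgeR. med-1, med-2 and elt-4 had no peak within the same distance.

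Of 18 intestinal genes, 15 held 30 peaks, and 2 of them rose upon RPOA-2 depletion (1.2% of all peaks) and 0 fell (0.487%), with a median log2 fold change of -0.064. ftn-1, a ferritin gene, averaged 33.0 ± 6.62 CPM in RPOA-2 depleted and 21.7 ± 2.46 CPM in RPOA-2 undepleted larvae (SD, n = 4 each), a log2 change of 0.59 (edgeR adjusted p = 0.00197). spl-1, which encodes sphingosine-1-phosphate lyase, averaged 112 ± 38.6 CPM in RPOA-2 depleted and 74.5 ± 13.9 CPM in RPOA-2 undepleted larvae (SD, n = 4 each), a log2 change of 0.47 (edgeR adjusted p = 0.000519). Neither was called without RPOA-2 depleted replicate 2, where the adjusted p was 0.479 for ftn-1 and 0.769 for spl-1 in edgeR, and spl-1 was also lost without RPOA-2 undepleted replicate 1 or 3. Over the 16 fits without 1 library the log2 change lay between 0.54 and 0.71 for ftn-1 and between 0.23 and 0.59 for spl-1. Both calls were also lost with no factors and with all peaks as control peaks, and that of spl-1 with control peaks from the GRWD-1 comparison. Upon GRWD-1 depletion 0 of the 30 were called, with 5 at an unadjusted p under 0.05 (10.8% of all peaks) and a median of -0.032. Of these 18 genes, ges-1, erm-1 and mtl-2 had no peak by the rule.

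Of 16 epidermal genes, 14 held 83 peaks, with 0 called upon RPOA-2 depletion (17 at an unadjusted p under 0.05, beside 12.3% of all peaks) and a median log2 fold change of -0.073. Upon GRWD-1 depletion 3 of the 83 fell (0.81% of all peaks) and 0 rose, with a median of -0.053. ajm-1, a component of apical junctions, averaged 92.005 ± 11.4 CPM in GRWD-1 depleted and 127 ± 20.0 CPM in GRWD-1 undepleted larvae (SD, n = 4 each), a log2 change of -0.46 (edgeR adjusted p = 3.39e-05). The other 2 lay at blmp-1, a transcription factor of the epidermis. One of them averaged 56.1 ± 7.05 CPM in GRWD-1 depleted and 71.6 ± 6.74 CPM in GRWD-1 undepleted larvae, and the other 17.7 ± 2.91 CPM in GRWD-1 depleted and 24.0 ± 3.23 CPM in GRWD-1 undepleted larvae (SD, n = 4 each). Their log2 fold changes were -0.36 (adjusted p = 0.0113) and -0.50 (adjusted p = 0.0181) in edgeR. All 3 calls were lost without RPOA-2 depleted replicate 2, where the adjusted p of ajm-1 was 0.396 in edgeR. The first blmp-1 call was also lost without GRWD-1 depleted replicate 3 or 4 or GRWD-1 undepleted replicate 3. The second was also lost without GRWD-1 depleted replicate 2 or 3 or GRWD-1 undepleted replicate 2, with an adjusted p of up to 0.451 in edgeR.

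Markers of whole tissues give the setting of these values. Most epidermis markers, ajm-1 among them, are also on the epidermal list above, and every intestine marker is on the intestinal list. The marker values are therefore not separate from those of the lists, and the ajm-1 call below is the one given above. Over 40 peaks at all 8 markers of the epidermis, the summed level was 1268 to 1403 CPM in RPOA-2 depleted and 1410 to 1552 CPM in RPOA-2 undepleted larvae. It was 1274 to 1385 CPM in GRWD-1 depleted and 1398 to 1556 CPM in GRWD-1 undepleted larvae, and so did not overlap in either. The sum over the 83 peaks of the longer epidermal list did overlap in both. That sum was 2262 to 2493 CPM in RPOA-2 depleted and 2438 to 2586 CPM in RPOA-2 undepleted larvae. For GRWD-1 it was 2329 to 2463 CPM in depleted and 2413 to 2584 CPM in undepleted larvae. The estimate was above 0 at 11 of the 40 marker peaks for RPOA-2 (50.8% of all peaks) and at 10 for GRWD-1 (51.5%). Upon RPOA-2 depletion 2 of them fell (0.487% of all peaks), at the cuticle collagen genes dpy-13 and rol-6. Upon GRWD-1 depletion 3 fell (0.81% of all peaks), at dpy-13, rol-6 and ajm-1. The dpy-13 peak averaged 110 CPM in RPOA-2 depleted and 170 CPM in RPOA-2 undepleted larvae. It averaged 103 CPM in GRWD-1 depleted and 153 CPM in GRWD-1 undepleted larvae, so it carried part of the gap between the 40-peak sums. The calls at dpy-13 held without any 1 library and under all other fits, with an adjusted p of at most 0.0392 in edgeR. Those at rol-6 and ajm-1 did not, and their adjusted p without RPOA-2 depleted replicate 2 was up to 0.595 in edgeR. For RPOA-2, rol-6 was also lost without RPOA-2 depleted replicate 3 or 4 or any RPOA-2 undepleted library, and for GRWD-1 without replicate 2 of either GRWD-1 group. The part of epidermal material in the lower values at elt-1 peaks 1 and 2 of GRWD-1 depleted larvae, neither of them called, was not tested. Over 10 peaks at 6 of 8 markers of the intestine, the sum was 384 to 396 CPM in RPOA-2 depleted and 392 to 458 CPM in RPOA-2 undepleted larvae. It was 374 to 403 CPM in GRWD-1 depleted and 369 to 443 CPM in GRWD-1 undepleted larvae. The intestinal sums overlapped in both depletions. Over 20 peaks at 5 of 6 neuron markers, the sum was 742 to 1002 CPM in RPOA-2 depleted and 677 to 756 CPM in RPOA-2 undepleted larvae. It was 751 to 1037 CPM in GRWD-1 depleted and 680 to 864 CPM in GRWD-1 undepleted larvae, and so overlapped in both, with higher means in depleted larvae. The estimate was above 0 at 15 of the 20 peaks for RPOA-2 and at 13 for GRWD-1. Of the 20, 1 rose upon RPOA-2 depletion (1.2% of all peaks), at egl-3, and that call was lost without RPOA-2 depleted replicate 2 (edgeR adjusted p = 0.960). It was kept in 9 of the 16 fits without 1 library, and lost also without RPOA-2 depleted replicate 3, RPOA-2 undepleted replicates 1, 3 and 4, GRWD-1 depleted replicate 3 or GRWD-1 undepleted replicate 1, with log2 changes of 0.055 to 0.50 over the 16 fits. Of 33 peaks at muscle markers, 19 at pharynx markers and 6 at germline markers, 0 were called in either depletion by edgeR (1.69% and 1.38% of all peaks). At an unadjusted p under 0.05 there were 6, 2 and 1 for RPOA-2 (12.3% of all peaks). For GRWD-1 there were 2, 1 and 0 (10.8%). By the same count there were 12 of the 40 epidermis peaks for RPOA-2 and 4 for GRWD-1. Of the 20 neuron peaks there were 4 and 7, and of the 10 intestine peaks 1 and 1.

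The genes with the pattern most like elt-2 over the 4 genotypes were F13D11.16, Y39A1B.6 and Y39A1B.7. The mean absolute difference of their centred log2 CPM from that of elt-2 was 0.025, 0.027 and 0.027, beside a median of 0.17 over the 2721 genes of a like level. For elt-3 they were WBGene00014341, WBGene00014342 and F42G4.9, with 0.0030, 0.0030 and 0.0050, beside a median of 0.056 over 5235 genes. These are likenesses over 4 group means and are a description only. Y39A1B.6 and Y39A1B.7 had equal differences, as did WBGene00014341 and WBGene00014342. Genes that overlap the same peaks have equal sums, so the genes of a pair may not be separate patterns.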

How the data were processed

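The deposited files hold, for each of 16 libraries, whole-number read counts in 29131 merged peaks, not normalized by the authors. After trimming (fastp) and alignment to WBcel235 (Bowtie2) they removed mitochondrial, unmapped and low-quality reads, called peaks per library with MACS2 and merged them with HOMER. featureCounts 2.0.1 counted reads, not fragments, without duplicates or strand, so overlapping genes cannot be told apart. What the positive shift stated for MACS2 does to the peaks was not tested.

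The quasi-likelihood test of edgeR 4.0.16 (glmQLFit and glmQLFTest, R 4.3.3) was used, with TMM scaling and filterByExpr, which removed 0 peaks. Each model had a term per genotype (4) plus 2 unwanted-variation factors, computed in the manner of RUVg from 13897 control peaks with an adjusted p of at least 0.75 for RPOA-2 depletion in DESeq2 1.42.0. Standard errors are the size of the log2 fold change divided by the square root of F. p-values were adjusted over all peaks by Benjamini-Hochberg, with a threshold of 0.05.

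The members and lists were chosen with earlier results of these data known. By rule, values in every library are given for each gene's densest peak and the peak nearest a transcript start, the 3 largest rises and falls of each depletion and peaks whose groups did not overlap, and list genes with a called peak are named. Alternatives were other tests, factors, control peaks, scalings, filters, thresholds, windows and replicate blocks, and leaving out each library. The fit was also run on simulated data. The outcome of that run is not given here, so nothing is concluded from it about the fit or its unwanted-variation factors. No genome sequence was used here, so the planned search for GATA letters in the peaks was not run.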

Additional observations from a re-analysis of the deposited data

Results flagged for a closer look

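In 5 of 104 groups of 4 libraries (26 peaks in 4 genotypes), 1 library stood apart by Dixon's test at 95%, and chance gives about 1 in 20. At elt-3 peak 2, GRWD-1 undepleted replicate 1 held 22.8 CPM beside 28.3 to 28.8 CPM in its other 3 libraries. At elt-2 peak 1, RPOA-2 depleted replicate 3 held 4.59 CPM, from 11 reads, beside 6.01 to 6.24 CPM. The other 3 were high values of a replicate 2. RPOA-2 depleted replicate 2 held 66.1 CPM at egl-18/elt-6 peak 5, beside 43.7 to 47.2 CPM. RPOA-2 undepleted replicate 2 held 52.4 CPM at egl-18/elt-6 peak 6, beside 48.9 to 49.4 CPM, and 103 CPM at elt-3 peak 1, beside 85.0 to 87.8 CPM. No call rests on these values.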

How the results depend on the processing

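Over 13 other fits and 16 fits without 1 library, 0 of the 26 peaks passed an adjusted p of 0.05, and the lowest adjusted p was 0.071. The fit with no filter repeated the main fit, as the filter had removed 0 peaks. At an adjusted p under 0.1, 1 peak was called for GRWD-1, elt-1 peak 2. Members were 25 peaks with 1 kb upstream, 25 with at least 50% of the peak covered and 18 by nearest 5′ end. All of them were among the 26 and were read from the main fit, so these choices could add no call. Over all 26 peaks, the GRWD-1 estimate changed sign at 8 with 3 factors and at 7 with its own 8 libraries. It changed at 6 with all peaks as control peaks and at no more than 2 in the rest of the 13 fits. The RPOA-2 estimate changed at 5 with all peaks as control peaks and at no more than 4 in the rest. The 26 named estimates are pairs of a peak and a comparison, picked by size, p, groups apart or few peaks at the gene. Of these, 20 kept their sign in all other fits with a value. With 3 factors, GRWD-1 estimates were -0.012 at egl-18/elt-6 peak 5, -0.044 at elt-7 and 0.0048 at end-1. With all peaks as control peaks they were -0.085 at egl-18/elt-6 peak 5 and -0.019 at elt-7, and from its own 8 libraries -0.022 at end-3 peak 2. With the replicate block and 2 factors, end-3 peak 1 had -0.059 for RPOA-2 and elt-3 peak 4 -0.085 between both depleted genotypes. The cause was not tested.

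Without 1 library, RPOA-2 estimates ranged from -0.18 to 0.099 at elt-2, from -0.22 to 0.054 at end-1 and from -0.034 to 0.19 at end-3 peak 1. GRWD-1 estimates ranged from -0.027 to 0.22 at egl-18/elt-6 peak 5, from -0.070 to 0.15 at elt-7, from -0.095 to 0.31 at end-3 peak 1 and from -0.0070 to 0.26 at end-3 peak 2.

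Calls at upstream regulators for RPOA-2 numbered 2 with DESeq2, DESeq2 size factors, library totals or the replicate block in place of the factors, 0 without factors and 0 to 3 without 1 library. For GRWD-1 they numbered 0 with no, 1 or 3 factors, either replicate block, control peaks from the GRWD-1 comparison or 8 libraries, and 0 to 1 without 1 library. Intestinal calls for RPOA-2 numbered 0 without factors or with all peaks as control peaks, 1 with control peaks from the GRWD-1 comparison and 0 to 2 without 1 library. For GRWD-1 they numbered 1 with control peaks from the GRWD-1 comparison and 0 to 1 without 1 library. Epidermal calls for RPOA-2 numbered 1 with 8 libraries and 0 to 1 without 1 library. For GRWD-1 they numbered 0 with no or 3 factors, all peaks as control peaks or 8 libraries, 1 with 1 factor or the replicate block in place of the factors, and 0 to 3 without 1 library.

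Over all peaks, calls for RPOA-2 and GRWD-1 numbered 34 and 40 without factors, 133 and 160 with 1 factor, 600 and 101 with 3, 63 and 183 with all peaks as control peaks, 130 and 282 with control peaks from the GRWD-1 comparison, 466 and 53 with 8 libraries, 519 and 198 with the replicate block in place of the factors and 304 and 349 with both.

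One replicate of each strain was handled together in 4 batches, but the labels do not tie replicate numbers to them, so no within-batch value could be had. Deviations of same-numbered libraries had a mean r of 0.29, 0.31, 0.043 and 0.039 for replicates 1 to 4 (lowest -0.019), beside -0.056 for different numbers, and 12 of 16 libraries correlated best with their own number. The replicate block changed no call at the 26 peaks. The difference between both effects needs 4 groups and was not run on 8 libraries. The peaks with the fewest reads in all, elt-2 and elt-3 peak 4 (8 to 94 per library), had standard errors of 0.20 to 0.24.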
